A study of Mus musculus with 4 samples.

Results

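The genes described here belong to the transforming growth factor beta (TGF-beta) superfamily pathway: its ligands, antagonists, receptors and SMAD proteins, together with the ID genes that the pathway controls. They were chosen by gene symbol, and the rule matched 63 of the 43998 entries in the deposited table, 1 entry per gene. The data are RNA-seq libraries of THY1+ spermatogonia taken from the testes of C57BL/6 mice at postnatal day 4, with 2 libraries from mice labelled germ cell RA signaling mutant and 2 from mice labelled control. RA is retinoic acid, a vitamin A derivative that sets spermatogonia on the path to differentiation. THY1 is a cell surface protein, and antibody-coated magnetic beads against it were used to pull the cells out of the testis. The labels name neither the modified gene nor a promoter or Cre driver, and whether different animals went into each library is not stated. The table gives 1 combined RPKM per gene and genotype (reads scaled for transcript length and library depth), made from both libraries. With combined values there is no replicate error to compare a difference with, so none carries an SD or a p-value.

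Ligands of this superfamily are secreted dimers that bring type II and type I receptor kinases together on the cell surface. TGF-beta and activin signals pass through SMAD2 and SMAD3, BMP signals through SMAD1, SMAD5 and SMAD9, and all of them pair with SMAD4 to enter the nucleus. BMP signalling is known to switch on the ID genes, whose proteins lack a DNA-binding region and hold E proteins away from DNA. In the neonatal mouse testis, Sertoli cells make inhibin, activin and anti-Müllerian hormone, and ID4 is used as a marker of the spermatogonia with stem cell activity.

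Each difference is log2((mutant RPKM + 1) / (control RPKM + 1)), and the added 1 shrinks the difference of scarce genes. A fold given beside the RPKM of a gene is instead the plain ratio of its mutant and control values. Genes were compared where the mutant or the control value reached 1 RPKM, as it did for 43 of the 63 members and 17278 of all entries. A member counted as lower or higher when the difference reached 2-fold on this scale. By this rule 3 members were lower in the mutant (Smurf2, Gdf15 and Tgfb1) and 0 were higher, against a background of 4.33% of all entries lower and 4.38% higher. Among protein-coding entries the shares were 4.07% lower and 1.39% higher. The 3 of 43 amount to 6.98%, which is near that background. Of the same 43 members, 28 had a mutant value below control and 15 above it, against 49.7% of all entries and 55.6% of protein-coding entries below. The median difference of the members was -0.39, beside 0.004 over all entries and -0.06 over protein-coding entries. Differences of -0.5 or lower were found in 16 members (37.2%), against 17.0% of all entries and 18.7% of protein-coding ones. Differences of 0.5 or higher were found in 4 members, against 15.7% and 9.21%. The marks at -0.5 and 0.5 were chosen after the values were seen. Bmp2, Gdf10 and Bmp8b passed the filter through 1 genotype only, which fixed their side of 0. They are included in the 28 and 15, Gdf10 is among the 16, and Bmp8b is among the 4. These counts were not taken without them. The median without them was -0.36. The median lay nearer 0 with other limits on level. It was -0.087 over the 28 members that reached 5 RPKM in mutant or control, and -0.08 over the 17 at 10 RPKM or more in both. With no filter it was -0.085 over all 63, but the added 1 holds members below 1 RPKM near 0. Over all entries the median was -0.035 at 5 RPKM or more in mutant or control, and 0.0 with no filter.

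The members were grouped by role, with Bmp1 in none of the groups. Of 18 measured ligands and antagonists 15 lay below 0, with a median of -0.46. With the trend of differences with transcript length and GC content removed, 14 of them lay below 0, with a median of -0.39. Among them Bmp2 and Gdf10 passed the filter only through control, and Bmp8b only through mutant. The filter thus fixed their side of 0, and no median of this group was taken without them. The 11 receptors and co-receptors were centred at 0.02, with 7 above 0 and 4 below, or at -0.19 with that trend removed. The 9 SMADs and SMURF ligases were centred at -0.01, or at 0.05 with that trend removed. Of the 4 ID genes, 3 lay below 0 and Id4 above it, with a median of -0.78, or -0.57 with that trend removed. The germ cell identity genes, described below, had higher mutant values, and values were also rescaled to bring that list to 0. This moved the median of all entries to -0.56, the ligands and antagonists to -0.91, the receptors to -0.56 and the SMADs and SMURF ligases to -0.60. The receptors and SMADs were thus displaced like the table as a whole. The ligands and antagonists, with Bmp2, Gdf10 and Bmp8b included, lay below the table as a whole.

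Sequences around the RefSeq start are shown for some of these genes. They were chosen because Id2 and Id4 are related targets of the pathway with differences of opposite sign. Id3 differed in the same direction as Id2, and Tgfb1 was the most abundant TGF-beta ligand. Each window runs from 250 bases before to 50 bases after the annotated RefSeq start, in build GRCm38.p6, written along the strand of the gene. The windows are chr12:25096043-25096342 on the minus strand for Id2 and chr4:136143572-136143871 on the plus strand for Id3. They are chr13:48260866-48261165 on the plus strand for Id4 and chr7:25686752-25687051 on the plus strand for Tgfb1. As annotated by GENCODE M21, Id2 spans 25093799 to 25097140 and Id3 spans 136143497 to 136145755. The Id2 and Id3 windows thus lie inside these genes by that annotation, while the Id4 window ends before the Id4 start at 48261228. Capitals mark GTCT or its reverse AGAC, the short box that SMAD proteins bind, and GGCGCC, a GC-rich element bound by BMP-activated SMADs, which reads the same on both strands.
Id2: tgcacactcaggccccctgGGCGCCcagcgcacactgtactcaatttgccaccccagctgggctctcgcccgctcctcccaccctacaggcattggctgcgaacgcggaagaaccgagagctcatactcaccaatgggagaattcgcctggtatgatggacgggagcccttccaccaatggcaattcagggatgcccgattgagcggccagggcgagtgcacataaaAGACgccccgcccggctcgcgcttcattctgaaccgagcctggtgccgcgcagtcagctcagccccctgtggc
Id3: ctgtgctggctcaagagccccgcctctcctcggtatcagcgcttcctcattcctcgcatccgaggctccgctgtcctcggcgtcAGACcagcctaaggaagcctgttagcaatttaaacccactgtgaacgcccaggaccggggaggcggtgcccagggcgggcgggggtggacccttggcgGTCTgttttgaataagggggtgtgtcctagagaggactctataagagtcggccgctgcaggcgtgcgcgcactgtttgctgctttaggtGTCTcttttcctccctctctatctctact
Id4: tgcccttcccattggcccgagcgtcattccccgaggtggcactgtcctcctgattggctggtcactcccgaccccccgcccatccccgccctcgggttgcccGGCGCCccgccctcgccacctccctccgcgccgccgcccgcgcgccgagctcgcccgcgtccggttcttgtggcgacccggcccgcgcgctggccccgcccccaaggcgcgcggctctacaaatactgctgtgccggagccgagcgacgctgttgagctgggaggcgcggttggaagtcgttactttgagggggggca
Tgfb1: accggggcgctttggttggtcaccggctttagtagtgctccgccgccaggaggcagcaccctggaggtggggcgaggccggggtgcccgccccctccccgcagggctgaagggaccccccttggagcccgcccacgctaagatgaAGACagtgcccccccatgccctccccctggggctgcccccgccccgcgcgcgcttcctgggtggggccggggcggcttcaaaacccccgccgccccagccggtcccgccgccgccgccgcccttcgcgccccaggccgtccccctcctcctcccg
Id2 held GGCGCC once and AGAC once, Id3 held the box 3 times without GGCGCC, Id4 held GGCGCC once without the box, and Tgfb1 held the box once without GGCGCC. No match in these windows overlapped a match of the other motif. Over all 32851 RefSeq promoter windows of this length, 88.0% held GTCT or AGAC and 11.9% held GGCGCC. The hexamer AGGTCA (reverse TGACCT), bound by nuclear receptors such as the retinoic acid receptors, was in none of the 4 windows and in 16.3% of all windows. Windows were found for 43 of the 63 members, 51 windows in all. Of these 51, 13 held GGCGCC, 45 held the SMAD box and 7 held the hexamer. These matches describe letters in a window and not binding.

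Among the ID genes, Id4 differed in the opposite direction to the other 3. Id2 was the most abundant of them, at 27.0 RPKM in mutant and 53.6 RPKM in control. Its difference of -0.96 lay just outside the 2-fold rule, and 4.62% of 12206 protein-coding entries with a single symbol had a lower one. Id1 was at 5.81 RPKM in mutant and 10.96 RPKM in control (-0.81). Id3 was at 11.5 RPKM in mutant and 20.01 RPKM in control (-0.75). As deposited, Id1, Id2 and Id3 were thus lower in the mutant by similar amounts, between 1.74-fold and 1.99-fold. With the length and GC trend removed, Id1 stood at -0.61, Id2 at -0.97 and Id3 at -0.52. Id4 was instead higher, at 26.7 RPKM in mutant and 18.5 RPKM in control (0.50). Rescaling to the germ cell identity list turned it to -0.11, which put its difference slightly below that list's own.

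The balance among the ID genes does not depend on such a rescaling. Id4 made up 37.6% of the summed RPKM of the 4 genes in mutant and 17.98% in control. Id2 made up 38.0% in mutant and 52.0% in control. The mutant value thus held Id2 and Id4 at nearly equal levels, while control held Id2 well above Id4. The 3 E protein genes, whose products ID proteins bind, lay above 0, with a median of 0.38 that turned to -0.25 on rescaling to the germ cell list. Tcf3 was at 70.7 RPKM in mutant and 54.2 RPKM in control. Tcf12 was at 71.4 RPKM in mutant and 54.02 RPKM in control. Tcf4 was at 31.3 RPKM in mutant and 27.7 RPKM in control, and none of the 3 reached 2-fold. Id4 lies on chromosome 13 from 48261228 to 48266026, and Id2 on chromosome 12 from 25093799 to 25097140, both in GRCm38 as annotated by GENCODE M21.

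**Figure D1:**
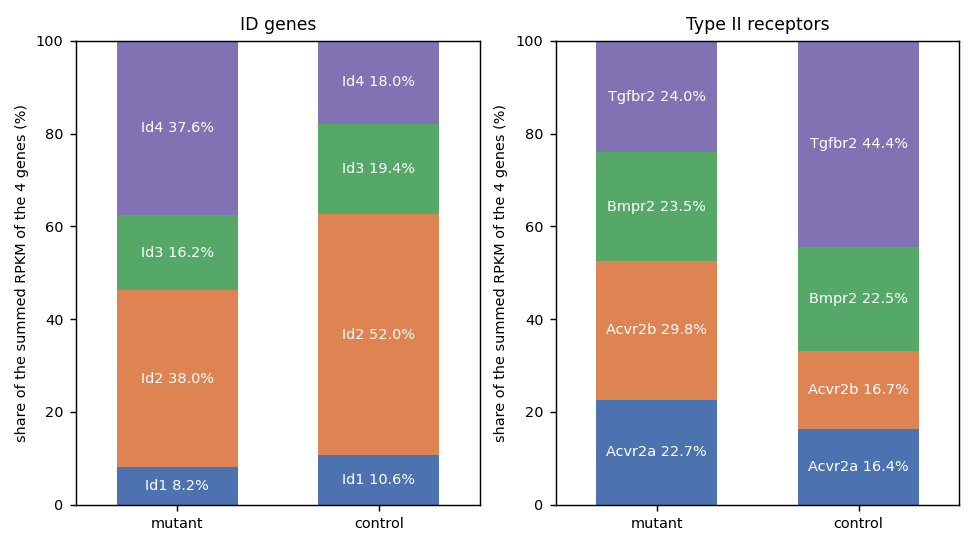
Stacked bars show the share of the summed RPKM held by each of the 4 ID genes (left panel) and each of the 4 type II receptors (right panel), in percent, for the mutant and control columns. Id4 takes 37.6% in mutant and 17.98% in control, and Tgfbr2 takes 24.04% in mutant and 44.4% in control.

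In these bulk values fewer cells of a type and less RNA per cell cannot be told apart. Markers of several testicular cell types also differed between the genotypes. Germ cell identity genes were all higher in the mutant (20 of 20, median 0.59, summed 1594 RPKM in mutant and 1125 RPKM in control). Macrophage genes were lower for 8 of 8 (median -1.43, summed 1251 RPKM in mutant and 3605 RPKM in control). Leydig cell genes were lower for 7 of 7 (median -1.48, 248 and 765 RPKM), and Sertoli cell genes for 9 of 10 (median -0.74, 157 and 330 RPKM). Interstitial fibroblast genes were lower for 7 of 7 (median -0.71, 125 and 220 RPKM), and peritubular myoid genes for 5 of 5 above the filter (median -0.69, 38.0 and 88.0 RPKM over 6). Endothelial genes had a median of 0.14, with 4 of 7 above 0 (26.4 and 25.9 RPKM), and the median was -0.0081 with quantile normalization and -0.35 when rescaled to the germ cell list. No marker of these lists was at 0 in either genotype. The defining germ cell genes were abundant, with Dazl at 353 RPKM in mutant and 274 RPKM in control, and Zbtb16, the gene of the spermatogonial factor PLZF, at 53.7 and 24.4 RPKM. Undifferentiated spermatogonia genes, Zbtb16 among them, were split, with 6 of 13 above 0 and a median of -0.23. By the 2-fold rule 3 were higher: Zbtb16, Neurog3 (6.94 RPKM in mutant and 1.40 RPKM in control) and Sox3 (11.3 and 3.47 RPKM). The 1 lower by that rule was Gfra1, at 14.2 RPKM in mutant and 35.9 RPKM in control (-1.28). The part of these cell types in the differences of the pathway genes was not tested.

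**Figure D2:**
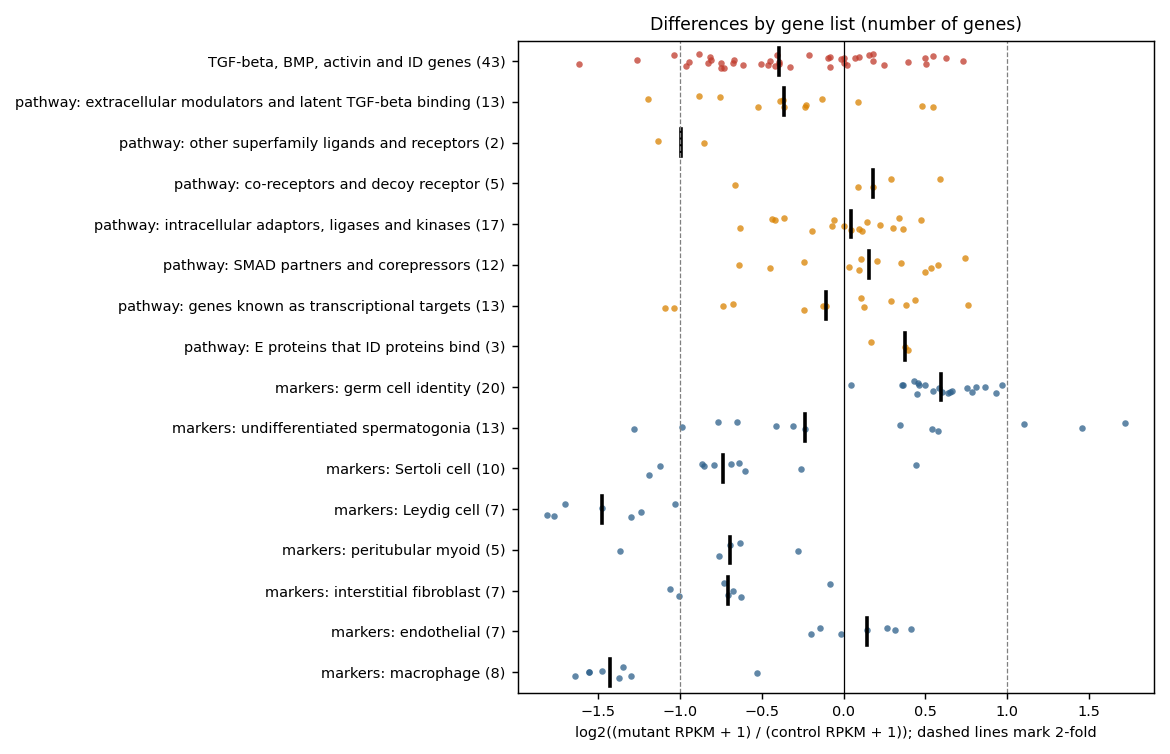
Each point is 1 gene that reached 1 RPKM in mutant or control, placed by log2((mutant RPKM + 1) / (control RPKM + 1)), with a black bar at the median of each list. The family (top row, median -0.39) spans -1.62 to 0.73, the germ cell identity genes lie above 0, and the macrophage and Leydig cell genes lie below 0.

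Among the TGF-beta ligands, Tgfb1 was the abundant member and had the lowest difference. It was at 10.04 RPKM in mutant and 21.7 RPKM in control, 2.16-fold lower (-1.04). The gene lies on chromosome 7 from 25687002 to 25705077 on the plus strand. Its call rests on a narrow margin, since it stood at -0.90 once the length and GC trend was removed. Tgfb3 was at 1.34 RPKM in mutant and 2.13 RPKM in control (-0.42). Tgfb2 was at 1.008 RPKM in mutant and 1.13 RPKM in control (-0.08). All 3 isoforms act through the same receptor pair, and Tgfb1 made up most of their summed level, which was 12.4 RPKM in mutant and 24.9 RPKM in control.

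Of 10 BMP ligand genes, 5 passed the filter, all of them scarce. Bmp7, the most abundant, was at 3.46 RPKM in mutant and 5.10 RPKM in control (-0.45). Bmp4, known for its role in founding the germ line and as a ligand for spermatogonia, was at 1.38 RPKM in mutant and 2.16 RPKM in control (-0.41). Bmp6 was at 1.33 RPKM in mutant and 2.72 RPKM in control (-0.67). Bmp2 was at 0.564 RPKM in mutant and 1.05 RPKM in control (-0.39). These 4 ligands were thus each lower, at low levels, but Bmp2 passed the filter only through control, which fixed its direction. Bmp8b, which mouse germ cells need to form and to survive in the testis, was the exception at 1.81 RPKM in mutant and 0.926 RPKM in control (0.55). Bmp8b passed the filter only through mutant, which fixed its direction. Its difference was 0.17 after rescaling to the germ cell list. Its paralogue and neighbour Bmp8a, 181 kb away on chromosome 4, was below the filter at 0.401 RPKM in mutant and 0.167 RPKM in control. Bmp1, which despite its name encodes a procollagen-cleaving protease, was at 4.32 RPKM in mutant and 7.13 RPKM in control (-0.61).

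Growth differentiation factors were scarce, and 4 of 10 passed the filter. Gdf15, a stress-induced secreted factor, had the lowest difference of any member measured on its own. It was at 1.39 RPKM in mutant and 4.73 RPKM in control, 3.40-fold lower (-1.26). Once the length and GC trend was removed it stood at -0.97, no longer past 2-fold. Gdf10 was at 0.535 RPKM in mutant and 1.69 RPKM in control (-0.81), and it passed the rule with a pseudocount of 0.5 (-1.08) or 0.1 (-1.49). It passed the filter only through control, which fixed its direction. Gdf11, a ligand for activin type II receptors, was at 1.89 RPKM in mutant and 1.56 RPKM in control (0.18). Gdf1 shared its entry with Cers1, a ceramide synthase gene that overlaps it on the same strand of chromosome 8, and their joint value was 1.49 RPKM in mutant and 1.88 RPKM in control. The reads of that pair cannot be told apart.

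The 3 inhibin and activin subunit genes above the filter were lower in the mutant. Inha encodes the inhibin alpha subunit, which pairs with a beta subunit to make the hormone that restrains pituitary follicle-stimulating hormone. Inha, on chromosome 1 from 75507077 to 75510366, was at 41.1 RPKM in mutant and 80.2 RPKM in control, 1.95-fold lower (-0.95). Inhbb, the beta B subunit, was at 5.68 RPKM in mutant and 10.1 RPKM in control (-0.73). Inhba, the beta A subunit of activin A, was at 2.91 RPKM in mutant and 4.38 RPKM in control (-0.46). Amh, a Sertoli cell hormone of the same superfamily, was at 18.5 RPKM in mutant and 34.2 RPKM in control (-0.85), and its receptor gene Amhr2 was at 7.71 and 18.1 RPKM (-1.14). The 10 Sertoli cell markers, Amh among them, ranged from -1.19 for Clu to 0.44 for Rhox5 in the same values, with a median of -0.74, and their part in the differences of these genes was not tested. Inhbc and Inhbe, beside each other on chromosome 10, were at most at 0.159 RPKM in mutant and 0.0813 RPKM in control.

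Secreted antagonists did not share 1 direction. Fst, the gene of follistatin, which binds and neutralizes activin, was at 12.9 RPKM in mutant and 8.84 RPKM in control (0.50). It turned to -0.08 when rescaled to the germ cell list. Fstl3, a follistatin relative, was at 1.24 RPKM in mutant and 2.98 RPKM in control (-0.83). With Fst above and the activin beta subunits below control, the ratio of Fst to summed Inhba and Inhbb was 1.499 in mutant and 0.611 in control. This ratio, too, is the same under any rescaling of the columns. Nog and Grem1, BMP antagonists, were below the filter.

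**Figure D3:**
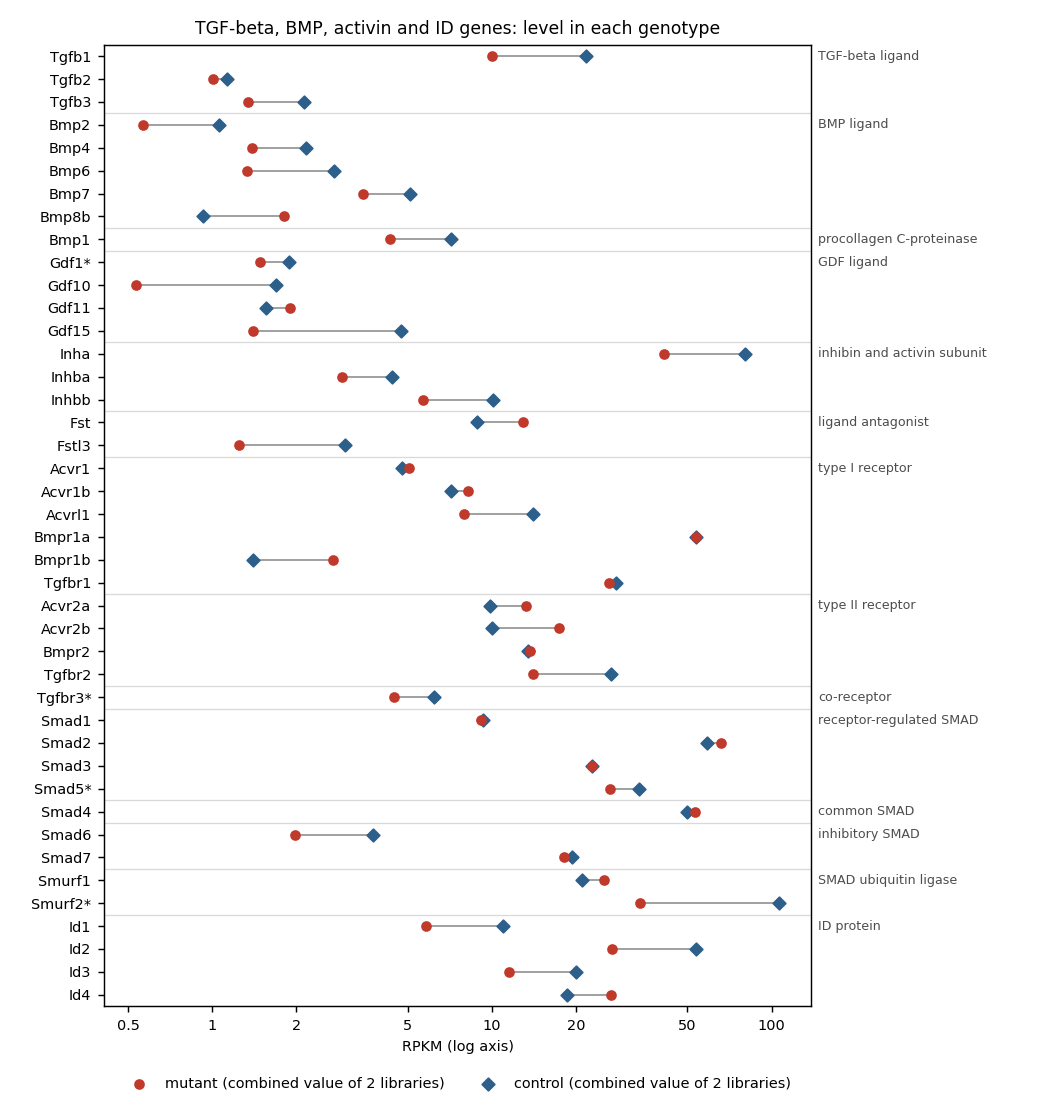
RPKM of the named members above the filter in the mutant column (circles) and the control column (diamonds) on a log axis, ordered by role, with an asterisk for entries shared with another gene symbol. Ligand and inhibin genes lie mostly with the mutant circle left of the control diamond, while Bmpr1a (53.6 RPKM in each column) and Smad3 (22.8 RPKM in mutant, 22.7 RPKM in control) nearly coincide.

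Summed receptor levels were close in the genotypes, while the make-up of the type II receptors differed. Tgfbr2, the type II receptor for TGF-beta, was at 14.0 RPKM in mutant and 26.6 RPKM in control (-0.88), 1.90-fold lower. Acvr2b, an activin type II receptor, had the highest difference of all members, at 17.3 RPKM in mutant and 10.02 RPKM in control (0.73). This rank depends on the added 1. With a pseudocount of 0.1, Bmpr1b (0.90) and Bmp8b (0.90) lay above Acvr2b (0.78). Acvr2a, the relative of Acvr2b, was at 13.2 RPKM in mutant and 9.81 RPKM in control (0.39). Bmpr2, the BMP type II receptor, was at 13.7 RPKM in mutant and 13.4 RPKM in control (0.02). The activin receptors thus outweighed Tgfbr2 in mutant and not in control. Tgfbr2 held 24.04% of the summed type II RPKM in mutant and 44.4% in control, while Acvr2a and Acvr2b together held 52.4% and 33.1%. The sum over the 4 genes was 58.2 RPKM in mutant and 59.9 RPKM in control. Tgfbr2 reached 2-fold with the length and GC trend removed (-1.02), and Acvr2b stayed positive after rescaling to the germ cell list (0.14) while Acvr2a did not (-0.19).

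Bmpr1a, a type I BMP receptor, was the most abundant receptor at 53.6 RPKM in mutant and 53.6 RPKM in control. Tgfbr1, the type I TGF-beta receptor, was at 26.3 RPKM in mutant and 27.9 RPKM in control (-0.08). Thus the type I partner of Tgfbr2 did not share the lower value of Tgfbr2. Acvr1b, the main activin type I receptor, was at 8.18 RPKM in mutant and 7.12 RPKM in control (0.18). Acvr1, a BMP type I receptor, was at 5.07 RPKM in mutant and 4.78 RPKM in control (0.07). Bmpr1b was at 2.71 RPKM in mutant and 1.40 RPKM in control (0.63), and kept a positive difference after rescaling to the germ cell list (0.19). Acvrl1, known as an endothelial type I receptor, was at 7.96 RPKM in mutant and 14.1 RPKM in control (-0.75). The 7 endothelial markers ranged from -0.20 for Cdh5 to 0.41 for Flt1 in the same values, and their part in the difference of Acvrl1 was not tested. Acvrl1 and Acvr1b lie 28.7 kb apart on chromosome 15, on the same strand, and differed in opposite directions. Tgfbr3, the co-receptor betaglycan, shared its entry with an unannotated symbol, and that entry was at 4.48 RPKM in mutant and 6.19 RPKM in control (-0.39).

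Of the genes of the SMAD proteins that carry the signal, Smad2, Smad3 and Smad4 were abundant and nearly level between genotypes as deposited. Rescaled to the germ cell list they stood at -0.47, -0.60 and -0.53, beside -0.56 for the median of all entries. Smad2 was at 65.7 RPKM in mutant and 58.9 RPKM in control (0.15). Smad4 was at 53.2 RPKM in mutant and 49.7 RPKM in control (0.10). Smad3 was at 22.8 RPKM in mutant and 22.7 RPKM in control (0.003), and Smad1 at 9.17 and 9.27 RPKM (-0.01). Smad5, a BMP SMAD, was at 26.5 RPKM in mutant and 33.5 RPKM in control (-0.33), in an entry that it shares with the 127-base RNA gene Gm27301 inside it. Smad9 was below the filter at 0.370 RPKM in mutant and 0.262 RPKM in control. Summed over these 5 receptor-regulated SMADs, the level was 124.5 RPKM in mutant and 124.7 RPKM in control.

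The inhibitory SMADs, which block receptor signalling, were split by level. Smad7 was at 18.1 RPKM in mutant and 19.3 RPKM in control (-0.09). Smad6, which acts mainly on BMP signals, was at 1.97 RPKM in mutant and 3.74 RPKM in control (-0.68). Smad3 and Smad6 lie 195 kb apart on chromosome 9, and their differences were 0.003 and -0.68. Smurf1, a ubiquitin ligase that marks SMADs and receptors for breakdown, was at 25.2 RPKM in mutant and 21.005 RPKM in control (0.25).

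Smurf2, the related ligase, had the lowest difference of all members, at 33.9 RPKM in mutant and 106 RPKM in control, 3.13-fold lower (-1.62). This value is uncertain, because the entry also covers Gm27322, a 104-base gene annotated as a miRNA on chromosome 11 from 106920658 to 106920761. That gene overlaps the first bases of Smurf2, which runs from 106820066 to 106920715 on the same minus strand. The reads of the pair cannot be told apart, and the part of Gm27322 in this difference was not tested. Without entries that pool several symbols, 2 of 39 members were lower by 2-fold, Tgfb1 and Gdf15, beside 4.35% of all such entries lower and 4.42% higher.

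**Figure D4:**
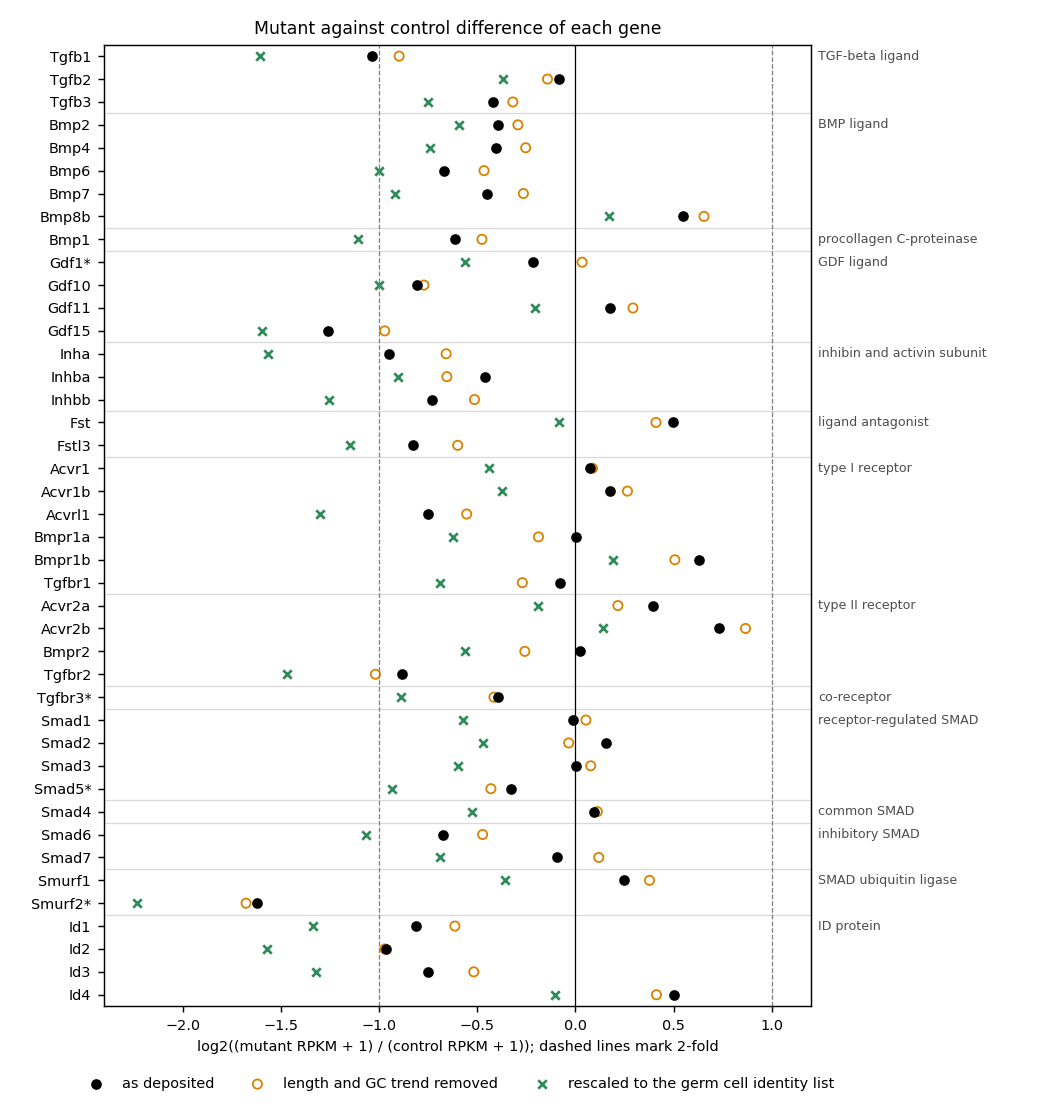
log2((mutant RPKM + 1) / (control RPKM + 1)) of each named member above the filter, ordered by role, as deposited (filled circles), after removal of the length and GC trend (open circles) and rescaled to the germ cell identity list (crosses). As deposited, Smurf2 (-1.62), Gdf15 (-1.26) and Tgfb1 (-1.04) lie past the left 2-fold line, and rescaling moves every member shown to the left.

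Other genes of the pathway were read from 7 lists outside the family. Of 63 measured genes in these lists, 4 were lower by the 2-fold rule and 0 higher, with a median of 0.04 and 34 above 0, or -0.53 and 4 above 0 when rescaled to the germ cell list. The background is again 4.33% of all entries lower and 4.38% higher. The lower ones were Nrros, Amhr2, Ctgf and Tgfbi. Once the length and GC trend was removed, 2 of 62 were lower, Nrros (-1.09) and Zeb2 (-1.07), while Tgfbi (-0.93) and Amhr2 (-0.90) were not past 2-fold and Ctgf had no length or GC value. Nrros, which tethers latent TGF-beta1 on macrophage-lineage cells, was at 27.5 RPKM in mutant and 64.2 RPKM in control (-1.20). Ctgf, a matricellular gene induced by TGF-beta, was at 5.86 RPKM in mutant and 13.6 RPKM in control (-1.09). Tgfbi, a matrix gene named for its induction by TGF-beta, was at 13.6 RPKM in mutant and 28.8 RPKM in control (-1.03). Over the 13 measured genes known as targets the median was -0.11, with 6 above 0, or 0.05 once the length and GC trend was removed. Hey1, a repressor gene induced by BMP and Notch signals, had the highest difference among these targets, at 5.88 RPKM in mutant and 3.07 RPKM in control (0.76). Atoh8 was at 5.56 RPKM in mutant and 3.84 RPKM in control (0.44), and Cdkn2b at 4.01 and 2.84 RPKM (0.38). The most abundant targets differed less, with Klf10 at 50.1 RPKM in mutant and 54.7 RPKM in control, and Fn1 at 44.0 and 40.7 RPKM. The 8 macrophage markers ranged from -1.64 for Lyz2 to -0.53 for Cd14 in the same values, and their part in the lower values of Nrros and Tgfb1 was not tested.

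As deposited, no intracellular gene of these lists was past 2-fold. The 17 adaptors, ligases and kinases had a median of 0.04, or -0.54 on rescaling to the germ cell list, with Usp9x at 171 RPKM in mutant and 155 RPKM in control. Wwp1, a ubiquitin ligase gene, was at 25.1 RPKM in mutant and 39.5 RPKM in control (-0.64). The 12 measured SMAD partners and corepressors had a median of 0.16, or -0.37 on rescaling, with Sp1 at 83.0 RPKM in mutant and 64.9 RPKM in control. Differences within this list ran both ways. Runx2, a transcription factor that partners SMADs, was at 3.91 RPKM in mutant and 1.94 RPKM in control (0.74). Tgif1, a SMAD corepressor, was at 41.8 RPKM in mutant and 27.7 RPKM in control (0.58). Zeb2, a SMAD-binding repressor, was at 34.8 RPKM in mutant and 54.7 RPKM in control (-0.64). Of 13 measured extracellular modulators 10 lay below 0, with a median of -0.36. Ltbp4, which binds latent TGF-beta, was at 6.61 RPKM in mutant and 13.1 RPKM in control (-0.89), while Ltbp1 was at 14.2 and 9.89 RPKM (0.48).

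The remaining 20 members were below an RPKM of 1 in both genotypes, from 0.00613 to 0.504 RPKM in mutant and from 0 to 0.838 RPKM in control. They were Bmp3, Bmp5, Bmp8a, Bmp10, Bmp15, Gdf2, Gdf3, Gdf5, Gdf6, Gdf7, Gdf9, Nodal, Lefty1, Lefty2, Inhbc, Inhbe, Nog, Grem1, Acvr1c and Smad9. Bmp10 and Gdf2 were listed at 0 in control. Nodal, which acts in fetal germ cells, was at 0.167 RPKM in mutant and 0.209 RPKM in control. Gdf9 and Bmp15, ligands known from the oocyte, were at 0.391 and 0.0245 RPKM in mutant, against 0.512 and 0.00638 RPKM in control. No Nodal or Lefty gene passed the filter.

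Counting error was worked out for some of the members with 1 annotated transcript, and no interval is given for Id4 or Gdf10. Low values stepped in whole reads, and if no other scaling entered them the steps place the depth near 57.3 M reads in mutant and 56.3 M in control. On that footing Inha rested on about 2980 reads in mutant (95% Poisson interval 2874 to 3089) and 5716 in control (5569 to 5866). Bmp2 rested on about 108 reads in mutant (88.6 to 130) and 199 in control (172 to 229). Nodal rested on about 18 reads in mutant (10.7 to 28.4) and 22 in control (13.8 to 33.3), so that a difference was not detectable at this depth. These intervals cover counting error and not the spread between animals or libraries.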

How the data were processed

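RNA of THY1+ spermatogonia was sequenced in 4 libraries, 2 per genotype. Per the submitters' processing notes, TopHat2 2.0.11 and the GRCm38 build were used. The read counter, the annotation and the way of combining libraries were not given in the sources used here. RPKM were deposited by the authors, per the file headers, in 1 column per genotype that combines both libraries. The design allowed for a linear model per library or, with combined columns, for differences without a test, and the second was used.

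Values were analysed with Python 3.11.15, numpy 2.4.6, pandas 2.3.3 and scipy 1.17.1, with figures from matplotlib 3.10.9. The scripts were tested on simulated data. Positions, gene types, transcript lengths and GC content came from GENCODE M21 (GRCm38), matched by symbol, because the spans in the table can be wider than the gene. Gene symbols that share an entry cannot be separated, and 4 members did (Gdf1, Tgfbr3, Smad5, Smurf2). The trend with length and GC content was the additive median over 20 bins of each, fitted over 16251 entries. Rescaling brought the median of 20 germ cell identity genes to 0, and quantile normalization used both columns. Depth was read from 1510 low mutant and 1523 low control values of genes with 1 transcript of at least 1000 bases, of which 90.7% and 84.8% lay within 0.1 of a whole read. Every member above the filter was named except 1 that is not reported here, with the other pathway and marker genes past 2-fold or of highest level, and some further pathway and marker genes were named after their values were seen. The members and all lists were chosen with earlier results of these data known.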

Additional observations from a re-analysis of the deposited data

How the results depend on the processing

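The combined columns allow no left-out library. No paired analysis was possible because each genotype has 1 column made from both of its replicates. Of 43 members, 1 changed sign with quantile normalization, 6 with the length and GC trend removed, and 12 after rescaling to the germ cell identity list, which moved the median of all entries to -0.56. Members lower by 2-fold numbered 5 with a pseudocount of 0.1, which put 6.70% of all entries lower and 8.48% higher, and 14 when rescaled to germ cell genes. The rescaling put 18.8% of all entries lower and 2.44% higher, beside 4.33% and 4.38% as deposited. The member median of -0.39 became -0.085 with no filter on low values, -0.087 with an RPKM of 5 or more, -0.27 with the trend removed and -0.74 after rescaling. For the other pathway genes, the count lower was 2 with the trend removed and 14 after rescaling, and the median was -0.063 with an RPKM of 5 or more and -0.53 after rescaling. In none of these settings was a member higher by 2-fold. The stricter filter left 28 members and no filter kept all 63, and apart from the sets of genes and the scale they define, the cause of these shifts was not tested. The planned replicate block and the fits without each replicate were not run for want of a column per library.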
